A study of Drosophila melanogaster with 9 samples.

Results

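The genes for the protein parts of the cytosolic ribosome were followed through 9 RNA sequencing libraries of Kc167 cells, a Drosophila line derived from embryos. They were taken as every row of the deposited expression table whose symbol begins with RpL (large subunit) or RpS (small subunit), together with sta, the gene for the small subunit protein SA. This gave 86 of 14797 genes, 50 of the large and 36 of the small subunit. The study had 3 libraries in each of 3 groups. In the ph+E(z)+CtBP RNAi group double-stranded RNA was directed against ph, E(z) and CtBP, in the ph+E(z) RNAi group against ph and E(z), and in the Control RNAi group against a target that the labels do not name. Cells of all groups were given 15 µg of dsRNA per fixed number of cells in serum-free medium, then medium with serum, and were harvested on day 7. Polyhomeotic (ph) is a subunit of a Polycomb repressive complex, E(z) is the enzyme that methylates lysine 27 of histone H3, and CtBP is a transcriptional corepressor. The series title names activation of HOX genes by CtBP as the question, and the ribosomal protein genes enter here as a set of very abundant transcripts that the same knockdowns can be read on.

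A ribosome joins a large and a small subunit, each built of ribosomal RNA and a fixed set of proteins. Most of these proteins are needed in equal numbers, and their genes are among the most strongly expressed in growing cells. In Drosophila, heterozygous loss of many of them gives the Minute phenotype of slow development and thin bristles. Several have a duplicate gene elsewhere in the genome, and some of the duplicates are known mainly from the ovary or testis.

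Values are FPKM, a fragment number divided by transcript length and by library size, so levels of different genes can be set side by side per length. Read numbers are not stated and depth is unknown. FPKM added up to between 725406 and 908290 in each library. Whether replicates were separate cultures is not stated, and a p then covers only the spread among these libraries. The knockdown targets were looked at first. CtBP lay at 49.0, 41.8 and 65.8 FPKM with ph+E(z)+CtBP RNAi, at 205, 221 and 220 FPKM with ph+E(z) RNAi and at 189, 202 and 205 FPKM with Control RNAi. E(z) lay between 8.93 and 9.85 FPKM with ph+E(z)+CtBP RNAi, between 8.29 and 12.1 FPKM with ph+E(z) RNAi and between 31.2 and 43.4 FPKM with Control RNAi. The ph-p gene lay at 7.22, 7.25 and 10.3 FPKM with ph+E(z)+CtBP RNAi, at 7.15, 8.02 and 7.28 FPKM with ph+E(z) RNAi and at 4.64, 18.9 and 18.1 FPKM in the libraries labelled Control RNAi-1, Control RNAi-2 and Control RNAi-3. The library labelled Control RNAi-1 thus went against its label for ph-p. For E(z) it went with its label, as the highest of the 9 libraries at 43.4 FPKM. Results that rest on it are given with and without it. All 10 hemocyte markers, the type of cell that Kc167 resembles, reached 1 FPKM in all 6 knockdown libraries, and 8 of them did so in all 3 libraries labelled Control RNAi. Their summed level was 613 to 668 FPKM with ph+E(z)+CtBP RNAi, 1257 to 1446 FPKM with ph+E(z) RNAi and 729 to 957 FPKM with Control RNAi. Over 4 fat body markers the sum was at most 0.191 FPKM in any library. Sums over the other marker lists were 20.9 to 26.6, 18.1 to 23.3 and 6.97 to 24.2 FPKM for 4 neuron markers, 9.62 to 15.5, 8.28 to 9.07 and 5.20 to 5.44 FPKM for 4 muscle markers, and 18.6 to 32.7, 22.6 to 27.5 and 23.5 to 31.1 FPKM for 6 germline markers, in each case with ph+E(z)+CtBP, ph+E(z) and Control RNAi in that order. The part of these differences in the results below was not tested.

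Of the 86 ribosomal protein genes, 77 were expressed at a high level and are called main genes here, 46 of the large and 31 of the small subunit. The other 9 had a mean over the 9 libraries below 10% of the median of all 86, which is a limit of 240 FPKM. No gene was near that limit, since RpS15Ab, the highest below it, averaged 48.3 FPKM and RpS14b, the lowest above it, averaged 549 FPKM. Of the 9, 8 are low paralogues of a main gene. The remaining gene, RpL15, has no such partner here and was listed at 0 in every library. Its protein belongs to every ribosome, and nothing is read from the listed 0. Genes were tested when at least 3 of the 9 libraries reached 0.5 FPKM, and all 77 main genes and 6 low paralogues passed, leaving out RpL15, RpL10Aa and RpS28a.

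The main genes spanned a 23.3-fold range of mean level, from 549 to 12762 FPKM, around a median of 2570 FPKM. RpL21, on chromosome 2L at 22247111 to 22247875 (dm6), was the highest, at 10006, 11704 and 11899 FPKM with ph+E(z)+CtBP RNAi, 13244, 11257 and 11362 FPKM with ph+E(z) RNAi and 22061, 11786 and 11537 FPKM in the libraries labelled Control RNAi. It ran from 10006 to 13244 FPKM in 8 libraries and stood apart, at 22061 FPKM, in the library labelled Control RNAi-1. The next large subunit genes were RpL41, which encodes a very short basic peptide, with a mean of 7985 FPKM, RpLP2 of the stalk with 6545 FPKM, RpL29 with 6535 FPKM and RpL35 with 6331 FPKM. In the small subunit RpS15 of the head region led with a mean of 6396 FPKM, followed by RpS7, RpS26, RpS29 and RpS28b. At the low end of the large subunit were RpL34a with 569 FPKM, RpL22 with 782 FPKM and RpL11, which binds 5S ribosomal RNA together with RpL5, with 1010 FPKM. In the small subunit they were RpS14b with 549 FPKM, RpS3A with 774 FPKM and RpS14a with 904 FPKM. Ribosomal protein genes filled 37 of the 50 highest ranks of all genes and 65 of the highest 100, by the mean over the 8 libraries other than the library labelled Control RNAi-1.

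**Figure D1:**
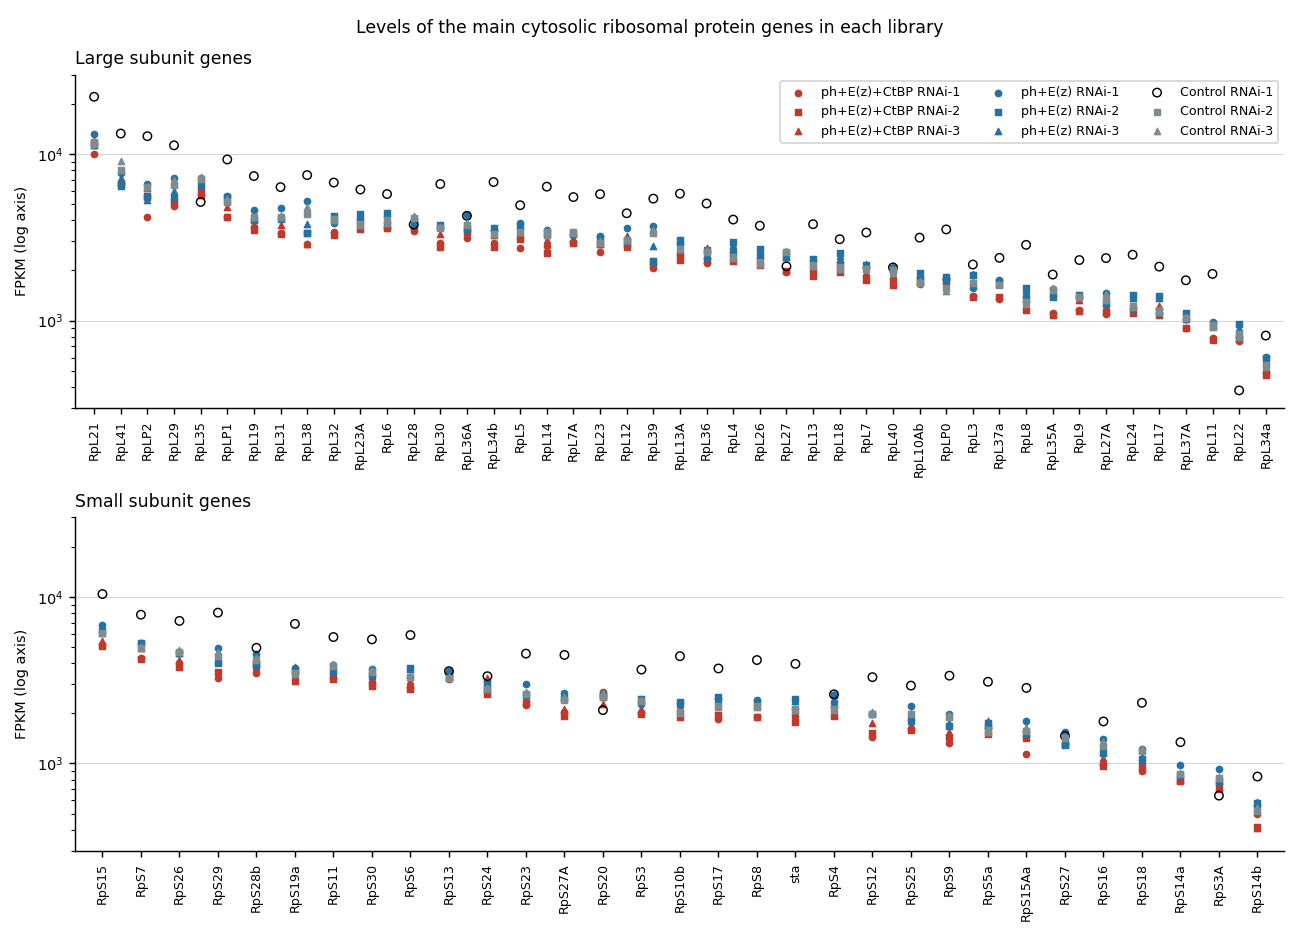
FPKM (log axis) of 76 of the 77 main ribosomal protein genes in each of the 9 libraries, large subunit above and small subunit below, ordered by mean level; colours mark the group, symbols the replicate, and the open circle is the library labelled Control RNAi-1. Mean levels run from 12762 FPKM for RpL21 to 549 FPKM for RpS14b, and the open circle is the highest of the 9 points for 66 of the 77 genes. The share of all tested genes with this order was not counted.

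Over the 8 libraries without the library labelled Control RNAi-1, the median coefficient of variation of the main genes was 9.18%, against 12.1% for the 129 other genes with a mean at least as high as the lowest main gene. RpS13, at 4.47%, varied least. RpL39, which lines the exit tunnel of the large subunit, varied most at 23.7%. Within the groups the median coefficient of variation was 8.17% with ph+E(z)+CtBP RNAi, 5.35% with ph+E(z) RNAi and 31.4% with Control RNAi, which became 1.55% between the libraries labelled Control RNAi-2 and Control RNAi-3 alone. Those 2 libraries differed by a median of 0.03 (log2) for the main genes.

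The library labelled Control RNAi-1 held more of nearly all ribosomal protein transcripts. Set against the libraries labelled Control RNAi-2 and Control RNAi-3, 70 of the 77 main genes were higher there than in both and 6 were lower than in both. The shares of all tested genes with these orders were not counted. Ratios were taken to the mean log2 level of those 2 libraries. The median ratio was 1.66-fold (log2 0.73, middle 50% of genes 0.54 to 0.87), against a median log2 difference of 0.02 over all 8853 tested genes, whose middle 50% ran from -0.59 to 0.48. The stalk base protein gene RpLP0 was raised most, 2.29-fold. The 6 exceptions were RpL22 at 0.471-fold, RpL35 at 0.72-fold, RpS3A, RpS20, RpL27 and RpL28. As RpL22 shows the other sign from its neighbours, its 9 values are given in full: 758, 775 and 854 FPKM with ph+E(z)+CtBP RNAi, 802, 949 and 903 FPKM with ph+E(z) RNAi and 381, 826 and 792 FPKM in the libraries labelled Control RNAi. RpL22 was thus low in the library labelled Control RNAi-1 and between 758 and 949 FPKM in the other 8. The ribosomal protein share of summed FPKM followed the same split. It was 26.9%, 26.7% and 29.0% with ph+E(z)+CtBP RNAi, 30.7%, 29.4% and 29.9% with ph+E(z) RNAi, and 40.01%, 31.0% and 31.0% in the libraries labelled Control RNAi. The 3 ph+E(z)+CtBP libraries were below all 6 others, and the 3 ph+E(z) libraries were below all 3 libraries labelled Control RNAi, narrowly so for replicate 1. When the 10 highest non-ribosomal genes were left out of the total, among them Nplp2 with 9149 to 18688 FPKM under ph+E(z) RNAi and 1043 to 1754 FPKM under Control RNAi, the shares became 28.8%, 28.5% and 30.8% with ph+E(z)+CtBP RNAi, 33.1%, 32.3% and 32.5% with ph+E(z) RNAi, and 42.0%, 32.4% and 32.5% with Control RNAi. On that total ph+E(z) RNAi overlapped the libraries labelled Control RNAi-2 and Control RNAi-3, and ph+E(z)+CtBP RNAi stayed below all others.

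**Figure D2:**
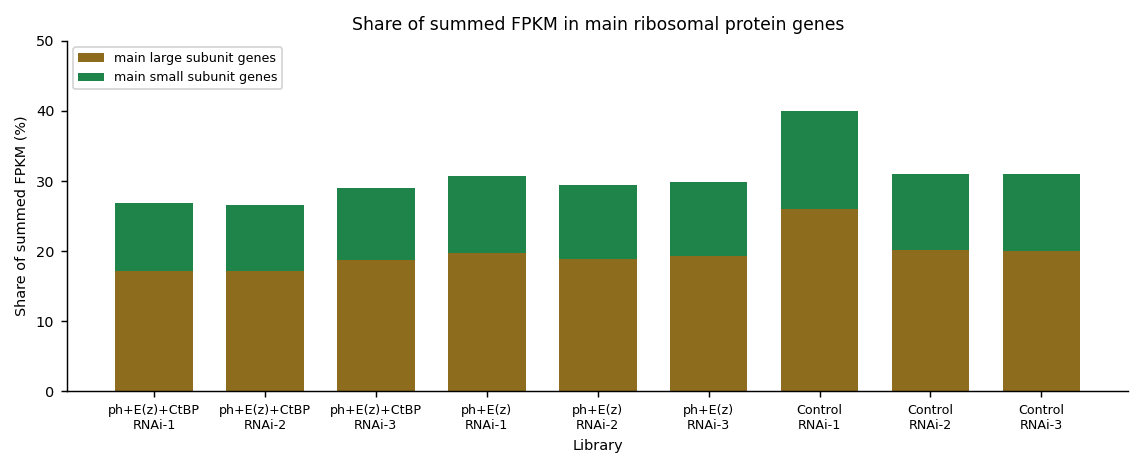
Share of summed FPKM (%) taken by the main large and small subunit genes in each library, as stacked bars from 0. With the low paralogues counted too, the ph+E(z)+CtBP RNAi libraries reach 26.7% to 29.0%, the ph+E(z) RNAi libraries 29.4% to 30.7%, and the library labelled Control RNAi-1 stands at 40.01%.

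With CtBP RNAi added to ph+E(z) RNAi, nearly all ribosomal protein transcripts lay lower than with ph+E(z) RNAi alone, each by a small amount. Lower levels in the cells and a changed mix of cells cannot be told apart in bulk RNA. The fitted log2 change, on the log2(FPKM + 0.5) scale, was below 0 for 76 of the 77 main genes, against 51.3% of all 8853 tested genes, and its median was -0.21 (middle 50% -0.27 to -0.15), a median level 13.7% lower, against -0.01 over all tested genes. For 40 main genes, 21 of the large and 19 of the small subunit, all 3 ph+E(z)+CtBP libraries lay below all 3 ph+E(z) libraries, against 16% of tested genes, and for none did they lie above, against 15.1%. In the fit of all 9 libraries 0 of the 83 tested members passed at an adjusted p under 0.05 (limma), where 3.72% of all tested genes did, and 2 low paralogues and no main gene had an unadjusted p under 0.05, against 14.5%. Without the library labelled Control RNAi-1, which belongs to neither group but enters the shared estimate of spread, the changes were the same and the median standard error was 0.084 in place of 0.207. In that fit 9 members passed, all lower with ph+E(z)+CtBP RNAi, against 6.65% of tested genes that passed as lower and 13.5% that passed in either direction. The size of the change depends on how libraries are scaled to each other. Quantile normalization left 56 of 77 main genes below 0 with a median of -0.08, and centring on the ribosomal protein genes themselves, which moves the median of all tested genes to 0.17, left 46.

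**Figure D3:**
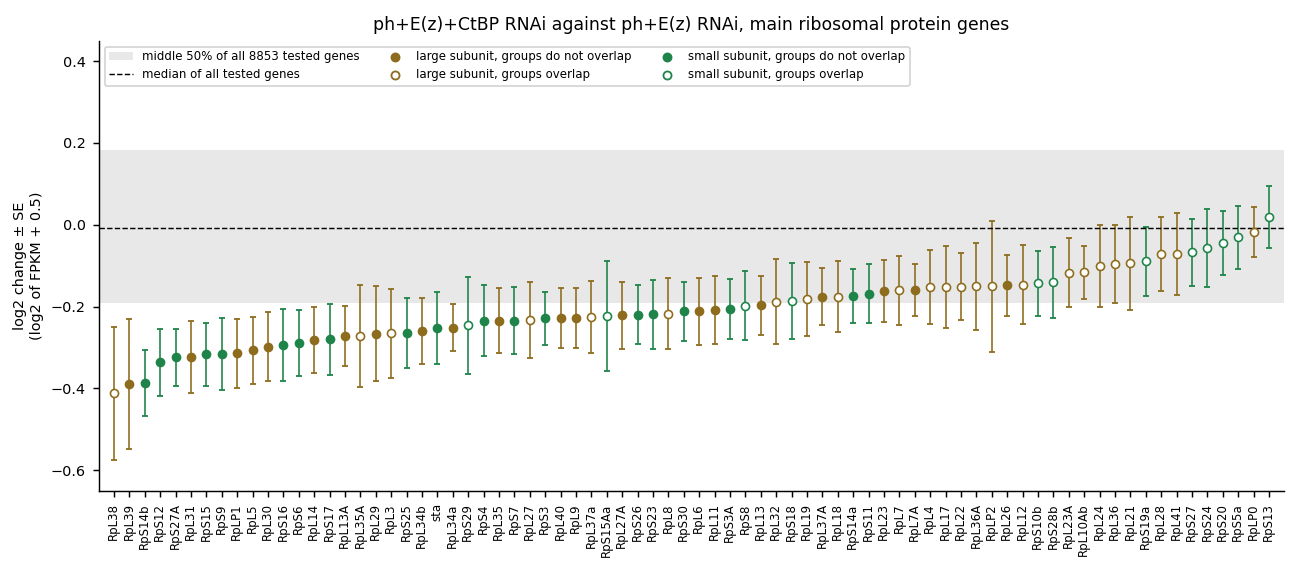
Log2 change of ph+E(z)+CtBP RNAi relative to ph+E(z) RNAi for 76 of the 77 main genes in order of size, with the standard error of the fit without the library labelled Control RNAi-1; filled points are genes whose 2 groups of libraries do not overlap, and the grey band and dashed line are the middle 50% and the median of all 8853 tested genes. All points but RpS13 lie below 0, from -0.41 for RpL38 to 0.02 for RpS13.

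Of the ribosomal stalk, which recruits the translation GTPases, RpLP1 was called lower and RpLP0 and RpLP2 were not. RpLP1 (2L, 419952 to 420864) lay at 4211, 4181 and 4819 FPKM with ph+E(z)+CtBP RNAi and at 5602, 5499 and 5296 FPKM with ph+E(z) RNAi. Every ph+E(z)+CtBP library was below every ph+E(z) library, and without the library labelled Control RNAi-1 the gene fell by 0.31 ± 0.08 (log2 ± SE, limma adjusted p = 0.0474; 0.644 with all libraries). RpLP0 lay at 1784, 1717 and 1825 FPKM with ph+E(z)+CtBP RNAi and at 1807, 1832 and 1751 FPKM with ph+E(z) RNAi, so the 2 groups overlapped. Its log2 difference was -0.02 ± 0.06, again without the library labelled Control RNAi-1. RpLP2 lay at 4158, 5503 and 6264 FPKM with ph+E(z)+CtBP RNAi and at 6628, 5602 and 5278 FPKM with ph+E(z) RNAi. Its libraries spread over more than the difference of -0.15 ± 0.16 in the same fit.

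Among the genes whose products are made as fusions with ubiquitin, RpS27A (2L, 10408352 to 10410456) lay at 2047, 1929 and 2129 FPKM with ph+E(z)+CtBP RNAi and at 2663, 2489 and 2489 FPKM with ph+E(z) RNAi. The groups were apart, with a fall of 0.32 ± 0.07 without the library labelled Control RNAi-1 (limma adjusted p = 0.0213; 0.631 with all libraries). RpS27A overlaps Ip259 on the same strand, and reads of the 2 genes cannot be told apart here. RpL40, the other fusion gene, lay at 1746, 1630 and 1871 FPKM with ph+E(z)+CtBP RNAi and at 1966, 2056 and 2119 FPKM with ph+E(z) RNAi. Its change of -0.23 ± 0.07 did not pass without the library labelled Control RNAi-1 (limma adjusted p = 0.0816). With all libraries the lowest limma adjusted p of any main gene in this comparison was 0.398.

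In the small subunit the others called lower were RpS12, RpS14b and RpS15. RpS12 (3L, 13023352 to 13024762), which flies need for the competitive loss of cells that lack a copy of another ribosomal protein gene, lay at 1449, 1521 and 1761 FPKM with ph+E(z)+CtBP RNAi and at 1972, 1980 and 1999 FPKM with ph+E(z) RNAi. The ph+E(z) libraries were close to each other and all above the ph+E(z)+CtBP libraries, and the gene fell by 0.34 ± 0.08 (limma adjusted p = 0.034 without the library labelled Control RNAi-1; 0.537 with it). RpS14b, of the platform of the small subunit, lay at 495, 415 and 412 FPKM with ph+E(z)+CtBP RNAi and at 557, 576 and 591 FPKM with ph+E(z) RNAi, a fall of 0.39 ± 0.08 (limma adjusted p = 0.0197; 0.398 with all libraries). RpS15 lay at 5148, 5062 and 5401 FPKM with ph+E(z)+CtBP RNAi and at 6789, 6209 and 6450 FPKM with ph+E(z) RNAi, a fall of 0.32 ± 0.08 (limma adjusted p = 0.0334; 0.625 with all libraries). For sta the values were 1931, 1780 and 2099 FPKM with ph+E(z)+CtBP RNAi and 2112, 2428 and 2380 FPKM with ph+E(z) RNAi, groups that did not overlap and differed by -0.25 ± 0.09 (limma adjusted p = 0.1 without the library labelled Control RNAi-1).

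In the large subunit RpL5, RpL31 and RpL34a were called lower beside RpLP1. RpL5 (2L, 22532279 to 22536884), a partner of 5S ribosomal RNA, lay at 2744, 3088 and 3270 FPKM with ph+E(z)+CtBP RNAi and at 3836, 3700 and 3695 FPKM with ph+E(z) RNAi (fall of 0.31 ± 0.08, limma adjusted p = 0.0471 without the library labelled Control RNAi-1). RpL31, near the mouth of the exit tunnel, lay at 3345, 3318 and 3722 FPKM with ph+E(z)+CtBP RNAi and at 4716, 4061 and 4224 FPKM with ph+E(z) RNAi (fall of 0.32 ± 0.09, limma adjusted p = 0.0483 without that library). RpL34a (3R, 26058420 to 26059267) lay at 487, 474 and 520 FPKM with ph+E(z)+CtBP RNAi and at 603, 594 and 566 FPKM with ph+E(z) RNAi (fall of 0.25 ± 0.06, limma adjusted p = 0.0281 without that library). None of the 3 passed with all libraries, where their adjusted p ran from 0.505 to 0.602, and the groups did not overlap for any of them.

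Of the 4 lowest estimates, RpS14b and RpS12 passed, as given above, and RpL38 and RpL39 did not. RpL38, which in mouse is needed to translate certain Hox mRNAs, lay at 2873, 3371 and 2876 FPKM with ph+E(z)+CtBP RNAi and at 5188, 3346 and 3783 FPKM with ph+E(z) RNAi. Its log2 change of -0.41 ± 0.16 came with groups that overlapped (limma adjusted p = 0.14 without the library labelled Control RNAi-1). RpL39 lay at 2060, 2228 and 2281 FPKM with ph+E(z)+CtBP RNAi and at 3694, 2282 and 2792 FPKM with ph+E(z) RNAi, a change of -0.39 ± 0.16 (limma adjusted p = 0.157 without that library), with a gap between the groups of less than 2 FPKM. Both genes were highest in ph+E(z) RNAi replicate 1. At the other end, RpS13 differed by 0.02 ± 0.08, RpS5a by -0.03 ± 0.08 and RpS20 by -0.04 ± 0.08, and the groups overlapped for each. These standard errors are from the fit without the library labelled Control RNAi-1.

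The 3 ph+E(z)+CtBP libraries were not equally low. Relative to the libraries labelled Control RNAi-2 and Control RNAi-3, the median log2 ratio of the main genes was -0.22, -0.22 and -0.05 with ph+E(z)+CtBP RNAi and 0.08, 0.03 and 0.03 with ph+E(z) RNAi. Replicate 3 of ph+E(z)+CtBP RNAi was the highest of its group for 69 of 77 main genes. Replicates 1 and 2 both lay below every ph+E(z) library for 64 genes, and replicate 3 did so for 43. The shares of all tested genes with these orders were not counted, so the counts only describe the main genes. The CtBP transcript itself was also highest in replicate 3, at 65.8 FPKM, and the part of the remaining CtBP transcript in this order was not tested.

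**Figure D4:**
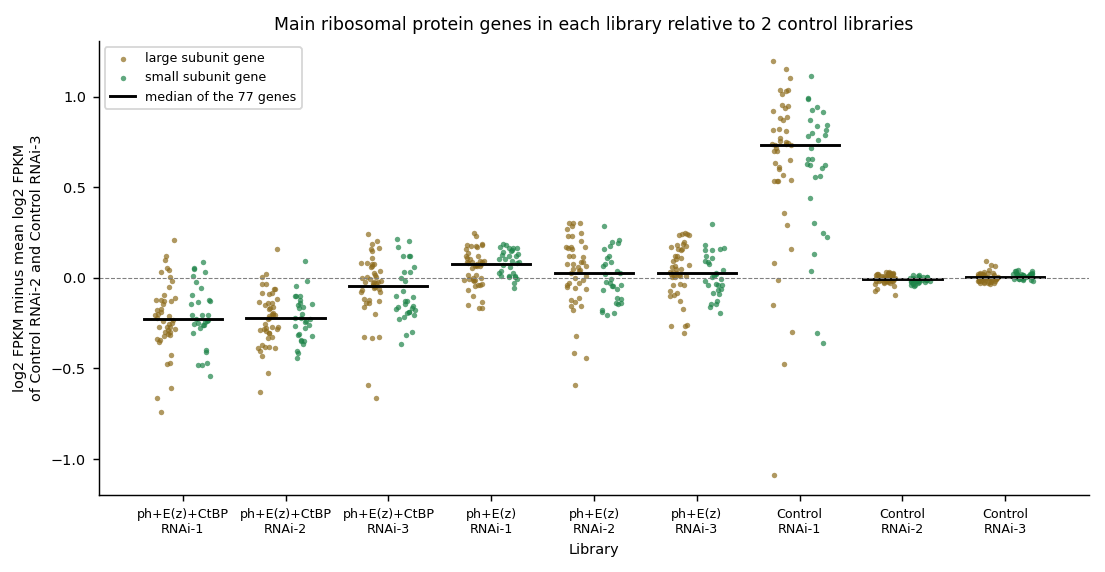
Log2 FPKM of each main gene in each library minus the mean log2 FPKM of that gene in the libraries labelled Control RNAi-2 and Control RNAi-3; colours mark the subunit and bars are the median of the 77 genes. The medians are -0.22, -0.22 and -0.05 with ph+E(z)+CtBP RNAi, 0.08, 0.03 and 0.03 with ph+E(z) RNAi, and 0.73 in the library labelled Control RNAi-1.

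With ph+E(z) RNAi alone no ribosomal protein gene passed the test against Control RNAi, and the direction of the small differences turned with 1 library. With all 9 libraries 0 of 83 tested members passed in ph+E(z) RNAi against Control RNAi (limma), where 3.92% of tested genes did, and 3 members had an unadjusted p under 0.05, against 17.3%. The median change of the main genes was -0.19, with 68 of 77 below 0, against a median of -0.00 over all tested genes, of which 50.2% were below 0. Without the library labelled Control RNAi-1 again 0 members passed, against 6.8% of tested genes, 8 members had an unadjusted p under 0.05, against 22.6%, and the median was 0.04 with 26 of 77 below 0. In that set of 8 libraries, 23 main genes (29.9%) were higher in all ph+E(z) libraries than in both control libraries, against 23.7% of all tested genes, and 2 (2.6%), RpL41 and RpL28, were lower, against 22.5%. RpL41 was the exception that held with all libraries, at 7724, 6413 and 7134 FPKM with ph+E(z) RNAi and at 13272, 8018 and 9123 FPKM in the libraries labelled Control RNAi. Its groups did not overlap, as was the case in the same direction for 12.9% of tested genes, and its change of -0.49 ± 0.21 did not pass (limma adjusted p = 0.272). The next lowest estimates were RpL39 at -0.48, RpLP2 at -0.46 and RpS18 at -0.43. The highest were RpL22 at 0.49, RpS4 at 0.15, RpS3A at 0.14 and RpS20 at 0.10, all with overlapping groups. Without the library labelled Control RNAi-1 these became -0.26 for RpL39, -0.13 for RpLP2, -0.11 for RpS18, 0.13 for RpL22, 0.25 for RpS4, 0.02 for RpS3A and -0.00 for RpS20.

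Against Control RNAi, most ribosomal protein transcripts lay lower with ph+E(z)+CtBP RNAi, again by small amounts. This comparison shares its control libraries with the last one and its ph+E(z)+CtBP libraries with the one before, so its changes are not independent of theirs. The median log2 change of the main genes was -0.39 with all libraries and -0.17 without the library labelled Control RNAi-1, against medians over all tested genes of -0.00 and -0.02. With all libraries 74 of 77 were below 0, against 50.3%, and 42 had all ph+E(z)+CtBP libraries below all libraries labelled Control RNAi, against 17.9% of tested genes, while none had them all above, against 18.4%. Without the library labelled Control RNAi-1 the counts were 63, against 51.9%, and 45, against 26.5%. In that set RpLP0 alone had all ph+E(z)+CtBP libraries above both controls, against 25.8%. Called members numbered 1 of 83 with all libraries, the low paralogue RpS19b, where 4.15% of tested genes were called lower (9.73% either way), and 6 without the library labelled Control RNAi-1, where 7.81% were called lower (17.4% either way). The 6 were RpS19b, RpS9, RpS12, RpS16, RpL35 and RpL39.

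RpS9, at the entry of mRNA into the small subunit, lay at 1330, 1449 and 1555 FPKM with ph+E(z)+CtBP RNAi and at 3365, 1908 and 1959 FPKM in the libraries labelled Control RNAi. Without the library labelled Control RNAi-1 it fell by 0.42 ± 0.10 (limma adjusted p = 0.0241; -0.69 ± 0.22 and 0.0874 with it). RpS16, which touches transfer RNA in the decoding region, lay at 999, 969 and 1071 FPKM with ph+E(z)+CtBP RNAi and at 1788, 1282 and 1354 FPKM in the libraries labelled Control RNAi, a fall of 0.38 ± 0.10 (limma adjusted p = 0.0354; 0.0687 with all libraries). For both genes all ph+E(z)+CtBP libraries were below all control libraries. RpS12 fell by 0.35 ± 0.09 against the libraries labelled Control RNAi-2 and Control RNAi-3, at 1990 and 2030 FPKM (limma adjusted p = 0.0353; 0.104 with all libraries). RpL39 stood at 5396, 3376 and 3512 FPKM in the libraries labelled Control RNAi, a fall of 0.65 ± 0.18 (limma adjusted p = 0.0425; 0.0528 with all libraries). RpL35 lay at 5658, 5891 and 5681 FPKM with ph+E(z)+CtBP RNAi and at 5155, 7059 and 7250 FPKM in the libraries labelled Control RNAi. It fell by 0.32 ± 0.09 without the library labelled Control RNAi-1 (limma adjusted p = 0.0476), while with that library, which was the lowest of all 9, the groups overlapped (-0.16 ± 0.17). RpL38 at -0.82 and RpL29 at -0.65 were also among the 4 lowest estimates with all libraries and did not pass. RpL22 at 0.34, RpS20 at 0.05 and RpS13 at 0.02 were above 0 and RpS24 was at -0.06.

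For 34 of the 77 main genes, that is 44.2%, the 3 ph+E(z)+CtBP libraries lay below all ph+E(z) libraries and also below the libraries labelled Control RNAi-2 and Control RNAi-3. Over all tested genes 10.5% had this order.

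The large and the small subunit had similar median changes. On adding CtBP RNAi to ph+E(z) RNAi the median log2 change was -0.20 for the 46 main large subunit genes and -0.22 for the 31 main small subunit genes. The log2 ratio of the median large subunit level to the median small subunit level was 0.28, 0.26 and 0.26 with ph+E(z)+CtBP RNAi, 0.35, 0.26 and 0.24 with ph+E(z) RNAi, and 0.24, 0.35 and 0.37 with Control RNAi. The ph+E(z)+CtBP and ph+E(z) libraries overlapped, with a difference of means of -0.02. With all libraries both also overlapped Control RNAi, with differences of -0.06 for ph+E(z)+CtBP RNAi and -0.04 for ph+E(z) RNAi. The libraries labelled Control RNAi-2 and Control RNAi-3 lay above all 6 knockdown libraries, ph+E(z) RNAi replicate 1 only just below them, and against these alone the differences were -0.10 and -0.08. Chromosome arms also showed like values: the median change on adding CtBP RNAi to ph+E(z) RNAi ran from -0.16 for 15 genes on X to -0.23 for 17 genes on 3R. RpS3A, the member on chromosome 4 (65225 to 67207), had -0.21.

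Transcript length went with part of the variation among main genes. This is a description over genes, which are not independent replicates and share libraries. The median transcript of the main genes had 688 bases, against 1753 for the tested genes with a length. Spearman's rho across the 77 genes between length and the change in ph+E(z) RNAi against the libraries labelled Control RNAi-2 and Control RNAi-3 was 0.48, with medians of -0.01, 0.03 and 0.11 in the shortest, middle and longest of 3 bins of 25 or 26 genes. Between length and the excess of ph+E(z) RNAi replicate 1 over replicates 2 and 3 it was -0.42, and RpL38 and RpL39 had the largest excess in that library, at 0.54 and 0.55 (log2). For ph+E(z)+CtBP RNAi against Control RNAi, rho was 0.41 without the library labelled Control RNAi-1 and 0.27 with all libraries. For ph+E(z) RNAi against Control RNAi with all libraries it was 0.21. Length had rho = 0.11 with the change on adding CtBP RNAi and -0.20 with the level. Why length and these differences went together was not tested.

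The low paralogues are described gene by gene. RpS19b (3R, 23932729 to 23933530), a duplicate of RpS19a known from the germline, lay at 3.85, 5.11 and 12.2 FPKM with ph+E(z)+CtBP RNAi, at 20.2, 12.2 and 10.8 FPKM with ph+E(z) RNAi, and at 42.5, 19.5 and 22.5 FPKM in the libraries labelled Control RNAi. Every ph+E(z)+CtBP library was below every library labelled Control RNAi. It fell by 2.0 ± 0.45 (limma adjusted p = 0.0291), or by 1.67 ± 0.44 without the library labelled Control RNAi-1 (0.0392). The call held in 16 of 22 alternative settings, with adjusted p between 0.000355 and 0.115 over them. It was lost in the fit of the 2 groups alone, with the replicate block, and without the library labelled Control RNAi-3, ph+E(z) RNAi replicate 2, or replicate 1 or 2 of ph+E(z)+CtBP RNAi. Its change relative to ph+E(z) RNAi was -1.09 ± 0.45 (limma adjusted p = 0.312), and between ph+E(z) and Control RNAi -0.91 ± 0.45 (0.34). The authors' deposited table gives RpS19b a q-value of 0.00191 for ph+E(z) against Control RNAi and 0.0234 for ph+E(z)+CtBP relative to ph+E(z) RNAi. Its share of the RpS19a and RpS19b sum was 0.11%, 0.163% and 0.322% with ph+E(z)+CtBP RNAi, 0.538%, 0.335% and 0.295% with ph+E(z) RNAi, and 0.614%, 0.553% and 0.651% with Control RNAi. RpS19a itself (X, 16637894 to 16639249) lay at 3504, 3126 and 3774 FPKM with ph+E(z)+CtBP RNAi, at 3737, 3637 and 3664 FPKM with ph+E(z) RNAi and at 6887, 3507 and 3442 FPKM in the libraries labelled Control RNAi, groups that overlapped except for the library labelled Control RNAi-1. Reads shared by copies of this kind may be split between them by the authors' counting, so the values of the lower copies are uncertain.

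RpS5b, a duplicate of RpS5a known from the ovary, lay at 22.4, 23.4 and 35.7 FPKM with ph+E(z)+CtBP RNAi, at 56.9, 33.5 and 27.4 FPKM with ph+E(z) RNAi, and at 115, 43.5 and 41.1 FPKM in the libraries labelled Control RNAi. The ph+E(z)+CtBP libraries were below the control libraries and overlapped the ph+E(z) libraries, and its change of -1.14 ± 0.43 against Control RNAi did not pass (limma adjusted p = 0.133). The authors' deposited table gives RpS5b a q-value of 0.0105 for ph+E(z) against Control RNAi, where the change fitted here was -0.65 ± 0.43 (0.448). No other member had a q-value under 0.05 in the authors' deposited table, whose lowest for a main gene were 0.141 and 0.215 in its 2 comparisons. The share of all genes under 0.05 there was not counted, so nothing is read from the number of members. RpS15Ab lay at 42.4, 44.5 and 42.2 FPKM with ph+E(z)+CtBP RNAi, at 56.4, 55.1 and 50.3 FPKM with ph+E(z) RNAi, and at 54.0, 45.9 and 43.8 FPKM in the libraries labelled Control RNAi. It fell by 0.32 ± 0.07 on adding CtBP RNAi (limma adjusted p = 0.0202 without the library labelled Control RNAi-1; 0.206 with it). RpS10a lay at 1.72, 2.91 and 1.81 FPKM with ph+E(z)+CtBP RNAi, at 2.43, 1.01 and 1.68 FPKM with ph+E(z) RNAi, and at 7.12, 3.97 and 3.35 FPKM in the libraries labelled Control RNAi. All 6 knockdown libraries were below all 3 libraries labelled Control RNAi, without a call (limma adjusted p = 0.0931 for ph+E(z) and 0.113 for ph+E(z)+CtBP RNAi against Control RNAi).

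**Figure D5:**
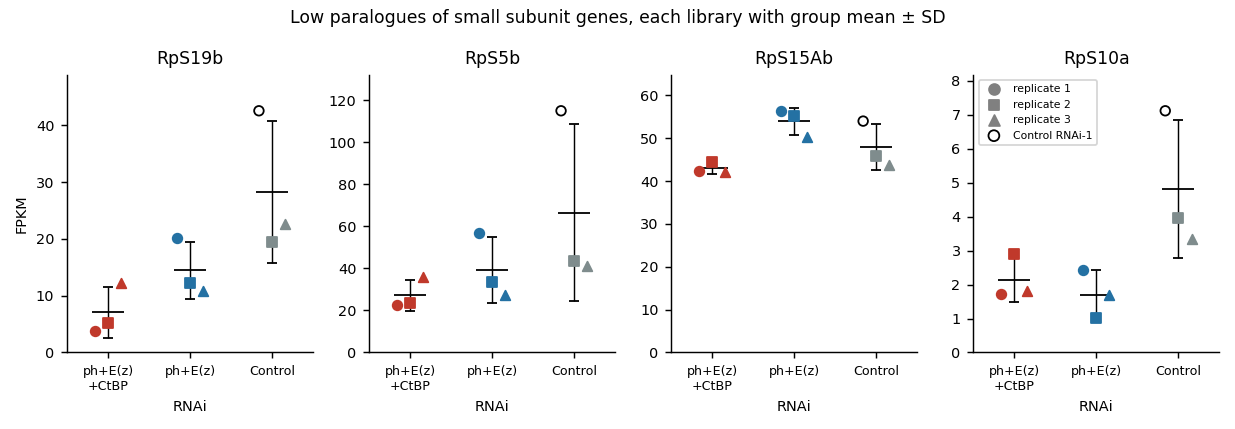
FPKM of RpS19b, RpS5b, RpS15Ab and RpS10a in each library (points) with the mean and SD of each group of 3 (bars); the open circle is the library labelled Control RNAi-1. RpS19b lies at 3.85 to 12.2 FPKM with ph+E(z)+CtBP RNAi, 10.8 to 20.2 FPKM with ph+E(z) RNAi and 19.5 to 42.5 FPKM with Control RNAi.

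The remaining low paralogues were near the floor of detection. RpL37b was listed at 0, 3.17 and 0 FPKM with ph+E(z)+CtBP RNAi, at 0 in all ph+E(z) libraries and at 2.70, 1.44 and 1.46 FPKM in the libraries labelled Control RNAi. RpL22-like was at most 1.19 FPKM in any library. RpS28a was listed at 0 except for 4.57 FPKM in ph+E(z)+CtBP RNAi replicate 3 and 7.79 FPKM in the library labelled Control RNAi-1, and RpL10Aa was listed at 0 throughout. Other pairs were closer in level. RpS14a and RpS14b stand in tandem on X, 220 bases apart on the same strand, from 7933742 to 7935792, and RpS14b took 38.6%, 34.6% and 34.1% of their sum with ph+E(z)+CtBP RNAi, 36.4%, 40.5% and 40.7% with ph+E(z) RNAi, and 38.3%, 37.3% and 38.4% with Control RNAi. These shares overlapped between groups. RpL34a took between 10.7% and 14.7% of the sum with RpL34b, lowest in the library labelled Control RNAi-1 and 13.6% to 14.7% in the other 8. The main partners RpL10Ab, RpL37a, RpS5a, RpS10b, RpS15Aa and RpS28b averaged between 1670 and 4118 FPKM.

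Overlapping genes limit some values, since strandedness is not stated. In the dm6 annotation 21 members overlap another protein-coding gene, 20 of them on the opposite strand. RpL12 and RpL39 overlap each other by 8 bases on opposite strands. RpL41 overlaps NaCP60E, RpL29 overlaps CG9752 and RpL31 overlaps clos, each on the opposite strand.

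Other genes of the translation apparatus were read beside these. The 71 tested genes for mitochondrial ribosomal proteins had a median log2 change of -0.16 on adding CtBP RNAi, with 1 called lower with all libraries, where 3.72% of all tested genes were called either way, and 5 without the library labelled Control RNAi-1, where 6.65% of all tested genes were called lower, a share near that of the list. Their median was -0.16 in ph+E(z) against Control RNAi, which became 0.04 without that library. Of 24 tested translation initiation factors 2 were called, both only without the library labelled Control RNAi-1 and on adding CtBP RNAi, again beside 6.65% of all tested genes called lower. There eIF-4E, which binds the mRNA cap, fell by 0.23 ± 0.06 and Int6, a subunit of initiation factor 3, by 0.33 ± 0.09 on adding CtBP RNAi (limma adjusted p = 0.032 and 0.047). Their median change on adding CtBP RNAi was -0.04. Of 9 elongation and termination factors, with a median of -0.12 on adding CtBP RNAi and no call there, Ef1alpha100E was lower in ph+E(z)+CtBP than in Control RNAi at 4.66, 6.49 and 7.77 FPKM against 11.99, 14.5 and 16.1 FPKM (log2 change -1.13 ± 0.21, limma adjusted p = 0.013), where 4.15% of all tested genes were called lower. It was called there again without the library labelled Control RNAi-1 (log2 change -1.24 ± 0.21, limma adjusted p = 0.007), together with Ef1beta (-0.31 ± 0.08, 0.041), beside 7.81% of all tested genes called lower. Without that library Ef1alpha100E was also lower in ph+E(z) than in Control RNAi (log2 change -0.98 ± 0.21, limma adjusted p = 0.032), where 6.8% of all tested genes were called either way. The major elongation factor gene Ef1alpha48D lay at 8852, 9143 and 8887 FPKM with ph+E(z)+CtBP RNAi, 8804, 10332 and 10546 FPKM with ph+E(z) RNAi and 7188, 8669 and 8721 FPKM in the libraries labelled Control RNAi. The knockdown groups overlapped each other and both lay above the libraries labelled Control RNAi, without a call (limma adjusted p = 0.587 for ph+E(z)+CtBP against Control RNAi). Of 29 tested ribosome assembly factors, with a median of -0.07 on adding CtBP RNAi, the kinase gene CG11859 (RIOK2) was higher in ph+E(z)+CtBP than in Control RNAi by 0.53 ± 0.12 (limma adjusted p = 0.03), where 9.73% of all tested genes were called either way. It passed again without the library labelled Control RNAi-1 (0.52 ± 0.12, limma adjusted p = 0.023) and Nop60B fell by 0.25 ± 0.07 (0.046), beside 17.4% of all tested genes called either way. On adding CtBP RNAi, CG11660 (RIOK1) rose by 0.35 ± 0.07 without that library (limma adjusted p = 0.018), where 13.5% of all tested genes were called either way. Of 11 regulators linked to ribosomal protein genes or growth, Thor rose on adding CtBP RNAi. Thor, the repressor of cap-dependent initiation that binds eIF4E, lay at 312, 304 and 265 FPKM with ph+E(z)+CtBP RNAi, at 136, 143 and 142 FPKM with ph+E(z) RNAi and at 130, 117 and 148 FPKM in the libraries labelled Control RNAi. It was higher by 1.06 ± 0.12 than with ph+E(z) RNAi (limma adjusted p = 0.0043) and by 1.16 ± 0.12 than with Control RNAi (0.0011), with no overlap in either comparison. In these comparisons 3.72% and 9.73% of all tested genes were called either way, and 15.1% and 18.4% were higher without overlap. Without the library labelled Control RNAi-1, S6k and Xrp1 also rose on adding CtBP RNAi, by 0.38 ± 0.06 and 0.29 ± 0.07 (limma adjusted p = 0.009 and 0.033), beside 13.5% of all tested genes called either way. Xrp1 was also higher than with Control RNAi by 0.33 ± 0.08 without that library (limma adjusted p = 0.025), beside 17.4% of all tested genes called either way.

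The choice by symbol leaves out 3 ribosomal protein genes listed under older names, sop (RpS2), oho23B (RpS21) and Qm (RpL10). sop lay at 1009, 1136 and 1635 FPKM with ph+E(z)+CtBP RNAi, at 1913, 1956 and 1821 FPKM with ph+E(z) RNAi and at 3253, 1784 and 1693 FPKM in the libraries labelled Control RNAi. It fell by 0.62 ± 0.16 on adding CtBP RNAi without the library labelled Control RNAi-1 (limma adjusted p = 0.0427; 0.348 with it), which exceeds the estimate of every main gene. oho23B and Qm changed by -0.20 ± 0.10 and -0.21 ± 0.09 there and did not pass.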

How the data were processed

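RNA of 9 libraries of Kc167 cells was sequenced on an Illumina HiSeq 2000 instrument, per the labels' protocols. The authors deposited FPKM values for 14797 genes in each library, and q-values of 2 comparisons. TopHat2 2.1.0, Bowtie2 2.2.6, Cufflinks, Cuffdiff, R 3.2.3 and the dm6 build are named, per the submitters' processing notes, while scaling between libraries, read numbers and strandedness are not stated. Some positions in the deposited table carry chromosome names of an older genome release, so coordinates come from the dm6 annotation of Ensembl release 115, matched by FlyBase identifier for 75 members and by symbol for 11. RefSeq or genome sequence was not used here.

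Groups follow the labels. A linear model of the 3 groups was fitted to log2(FPKM + 0.5) in R 4.3.3 (limma 3.58.1, moderated with a mean-variance trend) over the 8853 genes with at least 0.5 FPKM in at least 3 libraries. The Benjamini-Hochberg adjustment ran over all tested genes of a comparison, with a threshold of 0.05. The pseudocount makes changes of genes near 0 smaller than their ratios. The fit was also run on simulated data with 200 changed genes and the same spread in every library. The planted changes were larger than those of the main genes, so that run does not bear on them. Exact permutation tests of the shares and subunit ratios cannot go below 0.1 with 3 libraries a group, and since the members, lists and the rule for named genes were chosen with earlier results of these data known, no p over members is given. Named genes are the highest and lowest of each subunit, the paralogue pairs, the 4 largest and smallest changes of each comparison, every called member and the stalk, ubiquitin fusion, sta and RpL41 genes. The values of 1 member are not reported here. Other lists cover mitochondrial ribosomal proteins, initiation factors, elongation and termination factors, assembly factors, regulators and cell type markers. The alternatives covered pseudocount, filter, scaling, array weights, trend, robust moderation, 2-group fits, the replicate block and leaving out each library.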

Additional observations from a re-analysis of the deposited data

How the results depend on the processing

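The main count of called members was 0 for ph+E(z) against Control RNAi, 0 for ph+E(z)+CtBP against ph+E(z) RNAi and 1 for ph+E(z)+CtBP against Control RNAi. In the order of these comparisons, array weights gave 15, 42 and 44, with a weight of 0.0443 for the library labelled Control RNAi-1 and calls for 2924, 2396 and 3278 of 8853 genes. Fits of the 2 groups alone gave 1, 2 and 0, with calls for 210, 793 and 378 of 8853 genes. For ph+E(z)+CtBP against Control RNAi, quantile normalization gave 6, equal totals of non-ribosomal genes 4, robust moderation 2 and the filter of 1 FPKM in all libraries 2. In that order, calls over all genes numbered 990, 964 and 847 of 8853, and 674 of 7215 with the filter. Leaving out a library in turn gave 0 to 1, 0 to 9 and 0 to 6 called members. The highest counts came without the library labelled Control RNAi-1 in the comparisons that have 9 and 6, and without ph+E(z)+CtBP RNAi replicate 2 in the other. Beside the 9, the 6 and the 1, calls over all genes numbered 1191, 1541 and 251 of 8853. The replicate block gave 0, 0 and 0 called members, and 212, 241 and 593 called genes in place of 347, 329 and 861. Same-numbered libraries deviated with correlations of -0.14 to 0.20, and libraries of different number with -0.16 to 0.10. The labels state no pairing and these values do not settle whether there was any, so the block is not read further.

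The median change of the main genes on leaving out a library lay between -0.32 and 0.04, between -0.26 and -0.18 and between -0.53 and -0.17. It turned above 0 in the first of these only without the library labelled Control RNAi-1. Array weights gave 0.02 there and centring on ribosomal protein genes 0.01. On adding CtBP RNAi it moved to -0.076 with quantile normalization and to -0.030 with centring on ribosomal protein genes, which gave -0.016 for ph+E(z)+CtBP against Control RNAi. That centring moves the median of all genes to 0.19, 0.17 and 0.37. Over the 22 alternatives the main genes lay below the median of all genes on adding CtBP RNAi by 0.07 to 0.26. Many of these settings could not move this difference and kept its main value of -0.20. They were both centrings, no trend, robust moderation, 2-group fits, the replicate block and leaving out a control library. Quantile normalization gave -0.07, and leaving out ph+E(z)+CtBP RNAi replicate 3 gave -0.26. On leaving out a library, the difference in share lay between -5.52 and -1.01, -3.21 and -2.05, and -8.00 and -3.49 percentage points. The difference in the log2 ratio of large to small subunit, again on leaving out a library, lay between -0.077 and -0.011, -0.040 and 0.014, and -0.095 and -0.029. It changed sign on adding CtBP RNAi with sums (0.0031), with geometric means (0.0039), with all members (0.067) and without ph+E(z) RNAi replicate 1 (0.014), and with geometric means against Control RNAi (0.0032). RpLP0 in ph+E(z) against Control RNAi ran from -0.39 to 0.22 over the 22 alternatives, with 0.22 under array weights. It was called in 1 of the 22, with a lowest limma adjusted p of 0.0331. Depth is unknown, which limits what can be said of genes near 0. The causes of these shifts were not tested.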
